A study of Mus musculus with 12 samples.

Results

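The glucocorticoid receptor gene Nr3c1 and 9 genes that glucocorticoids are known to induce were followed through the first days of fat cell formation. The 10 genes were chosen by name and found by symbol among the 55414 Ensembl gene identifiers of the count table, and each passed the filter on low counts; Zbtb16 and Hsd11b1 passed it only through their day 2 libraries, so these 2 had to differ between days. The cells were 3T3-L1, a mouse preadipocyte line (mesenchymal stem cells in the labels), carrying FHL2-GFP (labelled as FHL2 overexpression) or the control construct CTRL-GFP. FHL2, a protein built of LIM domains, is a cofactor of several transcription factors. Cells of each line were taken after confluence, before induction (day 0), or after growth to day 2 with 170 nM insulin, 1 uM dexamethasone and 0.5 mM isobutylmethylxanthine in 10% fetal bovine serum. That gave 4 groups of 3 polyadenylated RNA libraries. The labels name no promoter, clone or pool for either line. There was no day 2 group without the mixture, so induction, its 3 agents and time in culture cannot be told apart.

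Dexamethasone is a synthetic glucocorticoid. Without hormone the receptor sits in the cytoplasm in a complex with HSP90 and its partner proteins, and with hormone it moves to the nucleus and binds paired 6-base DNA repeats called glucocorticoid response elements, or inhibits other factors by contact. Isobutylmethylxanthine blocks phosphodiesterases and so raises cyclic AMP, whose target genes often carry the element TGACGTCA, and insulin acts through AKT to silence FoxO factors. In preadipocytes the 3 agents together drive a round of cell division and then the adipocyte programme, and the glucocorticoid part is known for early induction of C/EBP delta and for loss of anti-adipogenic signals.

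The 250 bases before each annotated start were searched for exact copies of these elements. Elements farther from a start or with other letters were not searched. A window without a match therefore does not show that a gene lacks them. RefSeq windows of build GRCm38.p6 were matched for 8 members with 16 starts; Nr3c1 and Zbtb16 have no entry. The letters searched, on both strands, were the full glucocorticoid response element (AGAACA, any 3 bases, then TGTTCT), its single hexamer AGAACA, the full cyclic AMP response element TGACGTCA and its pentamer TGACG. A full element always contains its shorter form, so these matches overlap. The 4 windows shown are the only member window with a full glucocorticoid element, both windows with a full cyclic AMP element, and the window of Tsc22d3 with a hexamer. Capitals mark the matches, and each sequence runs 5′ to 3′ on the strand of the gene and ends at the base before the start.
Sgk1, start 5: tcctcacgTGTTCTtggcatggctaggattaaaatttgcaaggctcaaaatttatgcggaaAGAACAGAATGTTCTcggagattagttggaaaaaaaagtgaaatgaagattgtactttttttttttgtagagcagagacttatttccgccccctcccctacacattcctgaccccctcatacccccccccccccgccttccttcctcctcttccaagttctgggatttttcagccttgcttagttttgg
Dusp1, start 1: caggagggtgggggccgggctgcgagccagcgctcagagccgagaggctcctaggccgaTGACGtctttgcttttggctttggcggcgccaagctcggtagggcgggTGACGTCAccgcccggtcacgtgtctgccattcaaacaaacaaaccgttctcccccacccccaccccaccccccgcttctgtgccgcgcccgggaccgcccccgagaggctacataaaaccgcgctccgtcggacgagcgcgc
Errfi1, start 2: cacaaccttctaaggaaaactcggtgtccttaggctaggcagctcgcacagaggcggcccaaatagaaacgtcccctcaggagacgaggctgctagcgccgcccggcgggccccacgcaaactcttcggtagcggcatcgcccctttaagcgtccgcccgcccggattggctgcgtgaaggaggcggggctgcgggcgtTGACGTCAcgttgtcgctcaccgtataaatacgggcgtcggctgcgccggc
Tsc22d3, start 1: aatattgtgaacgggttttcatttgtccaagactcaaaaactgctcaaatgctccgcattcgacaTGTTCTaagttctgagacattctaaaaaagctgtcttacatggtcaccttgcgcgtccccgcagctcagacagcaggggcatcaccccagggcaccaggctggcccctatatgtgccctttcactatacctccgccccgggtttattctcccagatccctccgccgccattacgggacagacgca
These windows lie at chr10:21993640-21993889 (plus strand), chr17:26508473-26508722 (minus strand), chr4:150854820-150855069 (plus strand) and chrX:140600523-140600772 (minus strand). Start 5 of Sgk1 is downstream of 4 other annotated starts of that gene, so its window is inside the span of the longer transcripts.

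The full glucocorticoid element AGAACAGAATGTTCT stood 189 to 175 bases before start 5 of Sgk1. Among 32536 windows of the same length, only 3 held this element (0.00922%), and the others belonged to Acnat2 and Gm35041, which had no count in any library. The full cyclic AMP element stood 143 to 136 bases before the start of Dusp1 and 51 to 44 bases before start 2 of Errfi1, and 1.56% of all windows held it. The hexamer AGAACA was in 4 of the 16 member windows, which were start 1 of Tsc22d3 and starts 1, 4 and 5 of Sgk1, against 16.0% of all windows. The pentamer TGACG was also in 4 of 16, against 17.9% of all. These letters were not found in the windows of Fkbp5, Hsd11b1, Pdk4 and Ddit4.

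**Figure D1:**
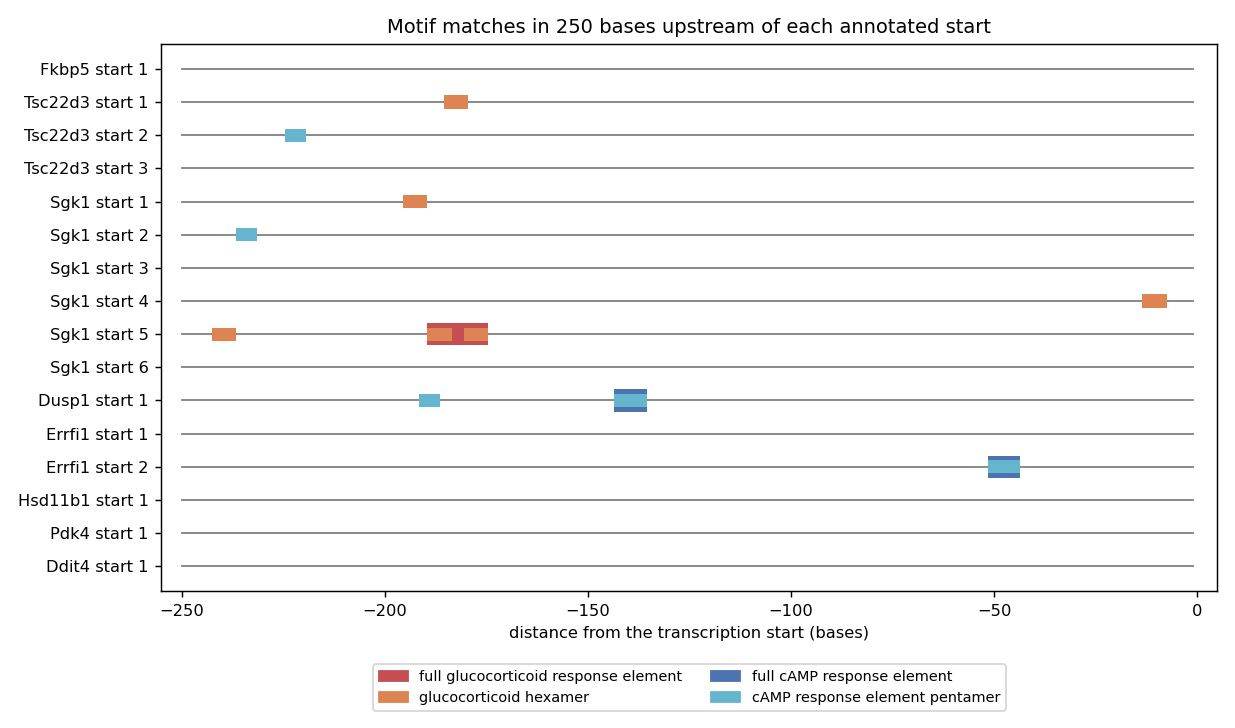
Each line is the window upstream of 1 annotated start of 8 members, drawn by distance in bases from the transcription start, and boxes mark matches of the 4 motifs. The full glucocorticoid element appears once, at start 5 of Sgk1, and the full cyclic AMP element at Dusp1 and at start 2 of Errfi1.

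Libraries held 10047708 to 21872139 counts. Genes detected numbered 17977 to 18811 at day 0 and 12689 to 16131 at day 2, and the mitochondrial share of counts was 2.43 to 2.95% at day 2 and 3.50 to 4.48% at day 0. The change between days also followed base composition: among genes of at least 5 CPM, the median log2 change in the control line ran from -1.71 in the quintile of genes with the lowest GC content to 0.78 in the quintile with the highest. Each change of the 10 genes between days is therefore also given with a correction for GC content where that moves the value by over 1.5-fold or alters the call, and the lists are given with corrected counts and medians. The labels do not say that the 3 libraries of a group came from separate cultures, so p-values measure only the spread between these libraries. Preadipocyte and fibroblast markers summed to 25641 to 31400 CPM in every library, while the 8 adipocyte markers summed to 156 to 210 CPM at day 0 and 260 to 422 CPM at day 2; Adipoq and Plin1 had no count at day 0. At day 2 Adipoq was at 3.02, 2.57 and 6.06 CPM in control and at 0, 2.41 and 0 CPM in FHL2 cells. This difference was not called (adjusted p = 0.490, edgeR). Plin1 was at 15.8 CPM in control and 4.16 CPM in FHL2 cells (adjusted p = 0.0777, edgeR). Cidec was at 14.6 and 4.88 CPM (adjusted p = 0.262, edgeR). Day 2 libraries of the lines did not overlap for Adipoq, Plin1 and Cidec, where 14.7% of all genes did not overlap. Fabp4, Lipe, Lpl, Pparg and Cebpa also had lower day 2 means in FHL2 cells, with overlapping libraries, and none was called. At day 0 Fabp4 (0.33 against 0.92 CPM) and Pparg (8.71 against 10.4 CPM) were already lower in FHL2 cells without overlap. Lpl was higher there without overlap (170 against 141 CPM). None of these day 0 differences was called, and 21.6% of all genes did not overlap. Macrophage, endothelial, epithelial and muscle lists each summed to under 20 CPM, and Adgre1, Epcam and Myod1 had no count. Other genes of these lists did have counts. In control cells Cd14 was at 4.86 CPM at day 0 and 10.1 CPM at day 2, and Lyz2 at 5.57 and 0.89 CPM. Des was at 4.52 and 2.83 CPM and Pecam1 at 1.12 and 0.21 CPM. The part of these shifts in the results was not tested. The gene named by the construct, Fhl2, did not separate the lines: it was at 61.2 ± 2.40 CPM in control and 62.7 ± 4.35 CPM in FHL2 cells at day 0, and at 16.3 ± 4.03 and 17.1 ± 6.49 CPM at day 2 (SD, n = 3). The labels do not give the species of the construct's FHL2 sequence, and these counts do not check the labels, and the lines are called by their labels throughout.

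The induced genes rose together while the receptor's own messenger RNA fell. In the control line 8 of the 10 genes rose, where 26.3% of the 14435 genes tested did, 1 fell, where 30.8% of all did, and 1 was not called. In the FHL2 line 9 rose (25.8% of all genes rose) and 1 fell (30.2% of all fell). The median log2 change of the 10 genes was 3.06 in control and 2.96 in FHL2 cells, beside -0.14 and -0.11 over all genes tested. Without Zbtb16 and Hsd11b1, 6 of 8 genes rose in control (median 2.13) and 7 of 8 in FHL2 cells (median 2.22). The libraries of the 2 days did not overlap for any of the 10 genes in either line, 9 being higher and 1 lower at day 2; among all genes 29.8% were higher without overlap and 38.9% lower in control, and 29.2% and 37% in FHL2 cells. In bulk RNA a rise per cell and a rise in the share of responding cells cannot be told apart. With the correction for GC content, which turned the counts of all called genes from 3799 up and 4447 down into 3617 up and 1720 down in control, and from 3730 and 4357 into 3345 and 1843 in FHL2 cells, all 9 induced genes rose in both lines (25.1% and 23.2% of all genes) and Nr3c1 was not called in either (11.9% and 12.8% of all genes fell). With the 3 day 2 libraries of lowest gene detection left out, all 10 genes were called in both lines; that fit leaves 1 FHL2 library at day 2, which is assumed to vary like the rest.

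**Figure D2:**
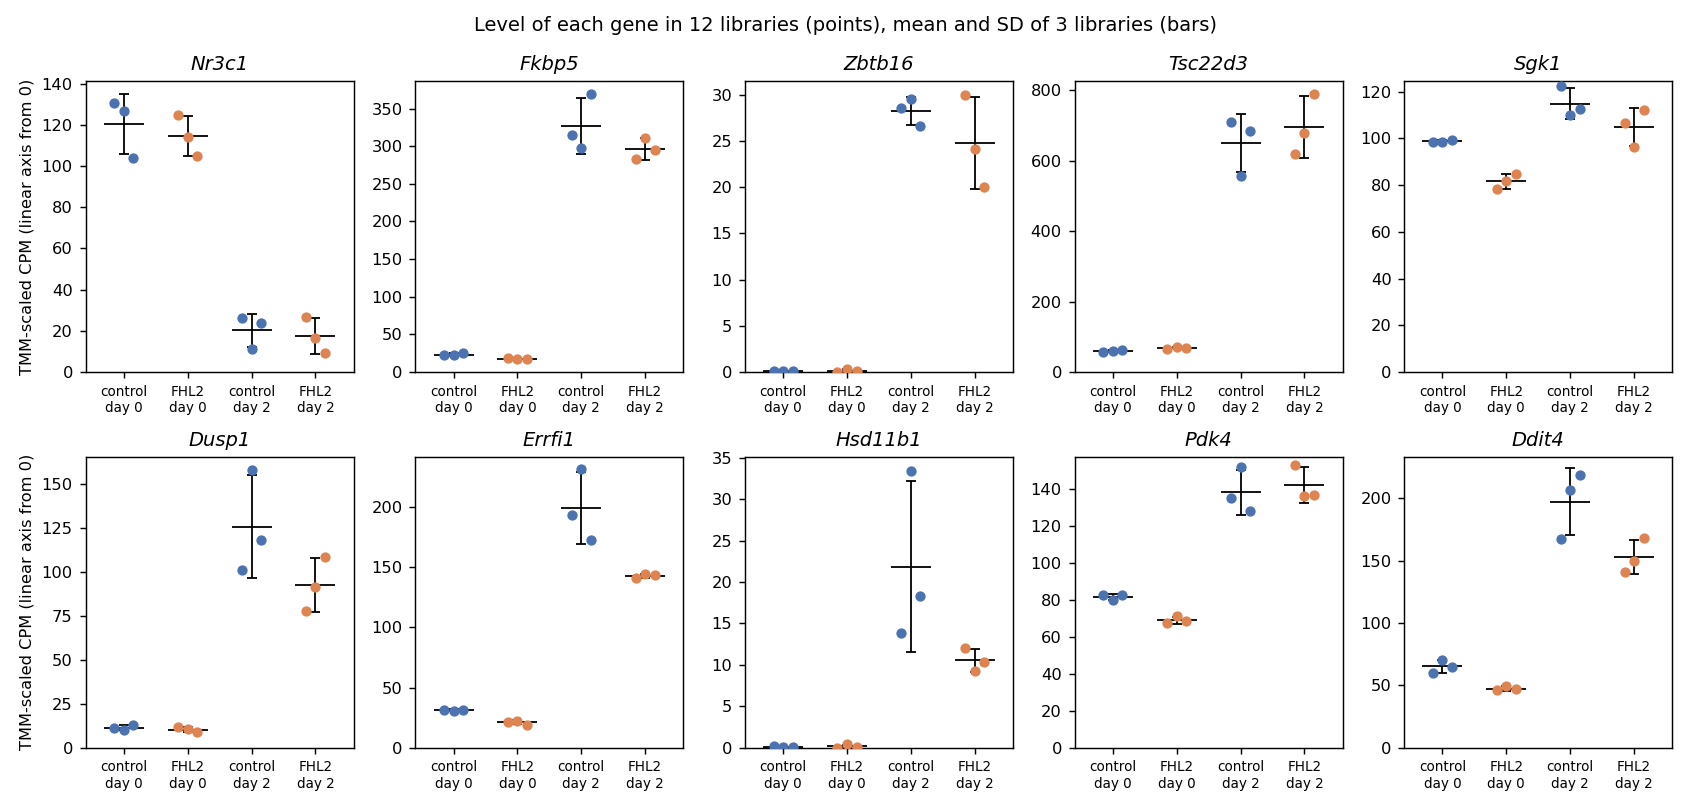
Points are the TMM-scaled CPM of each gene in each library, horizontal lines the means and bars the SD of 3 libraries, on linear axes that start at 0. Nr3c1 is lower at day 2 than at day 0 in both lines, the other 9 genes are higher, and the ratio of day 2 to day 0 means is smallest for Sgk1 (1.16 and 1.28).

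Nr3c1 (ENSMUSG00000024431) encodes the glucocorticoid receptor, a nuclear receptor that acts as a ligand-activated transcription factor. In the control line it was at 131, 127 and 104 CPM in the day 0 libraries and at 26.2, 11.2 and 23.7 CPM at day 2. In the FHL2 line it was at 125, 114 and 105 CPM at day 0 and at 26.7, 16.5 and 9.14 CPM at day 2. Every day 2 library was far below every day 0 library, and within day 2 the levels spread over more than the day 0 levels did (coefficient of variation 39.3% and 50.5%, against 12.1% and 8.56%). The mean fell 5.91-fold in control cells (log2 change -2.57 ± 0.33 SE, adjusted p = 1.29e-05, edgeR) and 6.57-fold in FHL2 cells (-2.72 ± 0.33, adjusted p = 8.13e-06).

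The size of the Nr3c1 change depended on the correction for base composition. The longest coding transcript of Nr3c1 has a GC content of 42.2%, in the lowest quintile, and the 723 genes within 1 percentage point of it had a median log2 change of -1.59 in control and -1.47 in FHL2 cells. After the correction the change of Nr3c1 was -0.64 ± 0.38 in control cells (adjusted p = 0.207) and -0.98 ± 0.38 in FHL2 cells (adjusted p = 0.0558), so the call ended in both lines. With the 3 day 2 libraries of lowest gene detection left out, the uncorrected change in FHL2 cells was -3.63. The 3 genes whose levels followed Nr3c1 most closely over the 12 libraries, by Pearson's r of log2(CPM + 0.5) among 9779 genes, were Mob1a (r = 0.997), an adaptor of the Hippo kinases, the ubiquitin ligase Itch (0.994) and the adhesion protein Flrt2 (0.993). They have GC contents of 43.4%, 42.1% and 41.8%, near that of Nr3c1, and such an r over libraries of 2 days mostly carries the difference between the days.

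Fkbp5 (ENSMUSG00000024222) encodes FKBP51, an immunophilin that binds HSP90 and lowers the hormone affinity of the receptor complex, so its induction is a short feedback loop. It was at 22.2, 22.1 and 25.1 CPM in control cells at day 0 and at 315, 298 and 369 CPM at day 2. FHL2 cells had 18.6, 17.2 and 17.0 CPM at day 0 and 283, 312 and 294 CPM at day 2. The day 2 libraries of both lines formed a narrow band an order of magnitude above day 0, with a coefficient of variation of 11.4% in control and 4.84% in FHL2 cells. The mean rose 14.1-fold in control cells (log2 change 3.82 ± 0.11, adjusted p = 1.56e-11, edgeR) and 16.9-fold in FHL2 cells (4.07 ± 0.11, adjusted p = 1.90e-11). The genes most like Fkbp5 by the same measure were Dap (r = 0.998), Mknk2 (0.998) and Ecm1 (0.998), with log2 changes in control cells of 1.26, 2.22 and 3.57.

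The transcriptional regulators among the targets differed widely in their starting levels. Zbtb16 (ENSMUSG00000066687) encodes PLZF, a BTB zinc finger repressor that is a sensitive reporter of glucocorticoid action in many cells. Control cells had 3, 2 and 2 counts of it at day 0 (0.14, 0.11 and 0.12 CPM) and 28.6, 29.5 and 26.6 CPM at day 2. FHL2 cells had 0, 7 and 3 counts at day 0 (0, 0.34 and 0.14 CPM) and 30.0, 24.2 and 20.04 CPM at day 2. Zbtb16 thus went from near absence to a clear signal in each of the 6 day 2 libraries. The ratio of means was 231 in control cells (log2 change 7.76 ± 0.54, adjusted p = 4.15e-08, edgeR) and 153 in FHL2 cells (7.25 ± 0.51, adjusted p = 6.02e-08). Since 7 and 10 counts in all stand behind the day 0 means, the size of the ratio is imprecise: without FHL2 day 0 library 1 the log2 change in that line was 6.63, and without library 2 it was 8.36.

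Tsc22d3 (ENSMUSG00000031431) encodes GILZ, a leucine zipper protein that binds NF-kB and AP-1 and carries part of the anti-inflammatory effect of glucocorticoids. The window of its start 1 is the one with the hexamer TGTTCT printed above, and the windows of starts 2 and 3 hold no hexamer. Counts per gene do not tell which start was used. Tsc22d3 was at 57.2, 59.3 and 61.5 CPM in control cells at day 0 and at 711, 558 and 684 CPM at day 2. FHL2 cells had 66.9, 70.4 and 68.8 CPM at day 0 and 619, 679 and 790.2 CPM at day 2. The lowest day 2 library was library 2 of the control line, and even this one was well above all day 0 libraries. Tsc22d3 rose 10.98-fold in control (log2 change 3.46 ± 0.12, adjusted p = 6.00e-11, edgeR) and 10.1-fold in FHL2 cells (3.34 ± 0.11, adjusted p = 6.94e-11).

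The targets that act in kinase signalling ranged from the weakest to among the stronger responders. Sgk1 (ENSMUSG00000019970) encodes a kinase of the AGC family that is activated through PI3 kinase and controls ion transport and FoxO factors. It was at 98.3, 98.4 and 99.4 CPM in control cells at day 0 and at 122, 109.9 and 112 CPM at day 2. FHL2 cells had 78.4, 81.8 and 84.9 CPM at day 0 and 107, 96.1 and 112 CPM at day 2. The days did not overlap within a line, yet the shift was small: the ratio of means was 1.16 in control and 1.28 in FHL2 cells. In control cells it was not called (log2 change 0.22 ± 0.095, adjusted p = 0.0630, edgeR), and in FHL2 cells Sgk1 rose (0.36 ± 0.095, adjusted p = 0.00512). With the correction for GC content it rose in both lines, by 0.63 in control (adjusted p = 0.00245) and 0.70 in FHL2 cells (adjusted p = 0.00105). Sgk1 is the member with the full glucocorticoid element in a window, and it had the smallest log2 change of the 10 genes without the correction; counts per gene do not tell which of its 6 annotated starts was used.

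Dusp1 (ENSMUSG00000024190) encodes the phosphatase MKP-1, which removes phosphate from p38, JNK and ERK kinases. Control cells had 11.2, 9.93 and 12.9 CPM at day 0 and 101, 158 and 118 CPM at day 2. FHL2 cells had 11.5, 10.4 and 9.16 CPM at day 0 and 78.0, 91.4 and 108 CPM at day 2. Library 2 of the control line was the highest at day 2, and the ranges of the lines overlapped through library 3 of the FHL2 line. Dusp1 rose 11.1-fold in control (log2 change 3.47 ± 0.20, adjusted p = 7.01e-09, edgeR) and 8.93-fold in FHL2 cells (3.16 ± 0.19, adjusted p = 1.56e-08). Its window holds a full cyclic AMP element and no glucocorticoid hexamer.

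Errfi1 (ENSMUSG00000028967) encodes MIG6, an adaptor that binds and inhibits the EGF receptor kinase. It was at 31.6, 30.8 and 31.8 CPM in control cells at day 0 and at 194, 231 and 173 CPM at day 2. FHL2 cells had 21.8, 22.4 and 19.1 CPM at day 0 and 141, 145 and 143 CPM at day 2. All FHL2 libraries were below all control libraries at each day, and the 3 FHL2 libraries of day 2 lay within a coefficient of variation of 1.20%. Errfi1 rose 6.35-fold in control (log2 change 2.67 ± 0.12, adjusted p = 7.56e-10, edgeR) and 6.78-fold in FHL2 cells (2.76 ± 0.12, adjusted p = 8.17e-10). With the correction for GC content the control change was 3.29.

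Hsd11b1 (ENSMUSG00000016194) encodes 11-beta-hydroxysteroid dehydrogenase type 1, which regenerates active glucocorticoid from its inert keto form inside fat and liver cells. Control cells had 4, 2 and 1 counts of it at day 0 (0.18, 0.11 and 0.06 CPM) and 13.9, 33.4 and 18.3 CPM at day 2. FHL2 cells had 0, 8 and 3 counts at day 0 (0, 0.39 and 0.14 CPM) and 12.1, 9.28 and 10.3 CPM at day 2. Like Zbtb16, Hsd11b1 was close to absent before induction, and at day 2 the lowest control library was above the highest FHL2 library. The ratio of means was 187 in control (log2 change 7.41 ± 0.73, adjusted p = 1.06e-06, edgeR) and 59.4 in FHL2 cells (5.88 ± 0.68, adjusted p = 4.90e-06). The day 0 means rest on 7 and 11 counts, and the log2 change in FHL2 cells was 5.26 without day 0 library 1 of that line, 7.12 without library 2 and 6.59 with the correction for GC content, which gave 8.15 in control.

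Pdk4 and Ddit4 act in fuel use and growth. Pdk4 (ENSMUSG00000019577) encodes pyruvate dehydrogenase kinase 4, which shuts pyruvate out of the citrate cycle and spares glucose. It was at 82.5, 79.8 and 82.7 CPM in control cells at day 0 and at 135, 152 and 128 CPM at day 2. FHL2 cells had 67.3, 71.0 and 68.3 CPM at day 0 and 153, 136 and 137 CPM at day 2. The lines met at day 2 although all FHL2 libraries were lower at day 0. Pdk4 rose 1.69-fold in control (log2 change 0.76 ± 0.097, adjusted p = 1.22e-05, edgeR) and 2.06-fold in FHL2 cells (1.04 ± 0.097, adjusted p = 6.83e-07). Its transcript has a GC content of 44.9%, and with the correction its log2 change was 1.98 in control and 2.17 in FHL2 cells.

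Ddit4 (ENSMUSG00000020108) encodes REDD1, which restrains mTORC1 through the TSC complex. Control cells had 60.2, 70.7 and 64.7 CPM at day 0 and 167, 207 and 219 CPM at day 2. FHL2 cells had 46.0, 49.6 and 46.8 CPM at day 0 and 141, 149 and 168 CPM at day 2. The lines were apart at day 0 and touched at day 2, where library 3 of the FHL2 line passed library 1 of the control line. Ddit4 rose 3.03-fold in control (log2 change 1.60 ± 0.12, adjusted p = 8.08e-08, edgeR) and 3.22-fold in FHL2 cells (1.69 ± 0.12, adjusted p = 5.84e-08). Its GC content is 57.9%, and the correction lowered its log2 change to 1.00 in control and 1.08 in FHL2 cells.

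**Figure D3:**
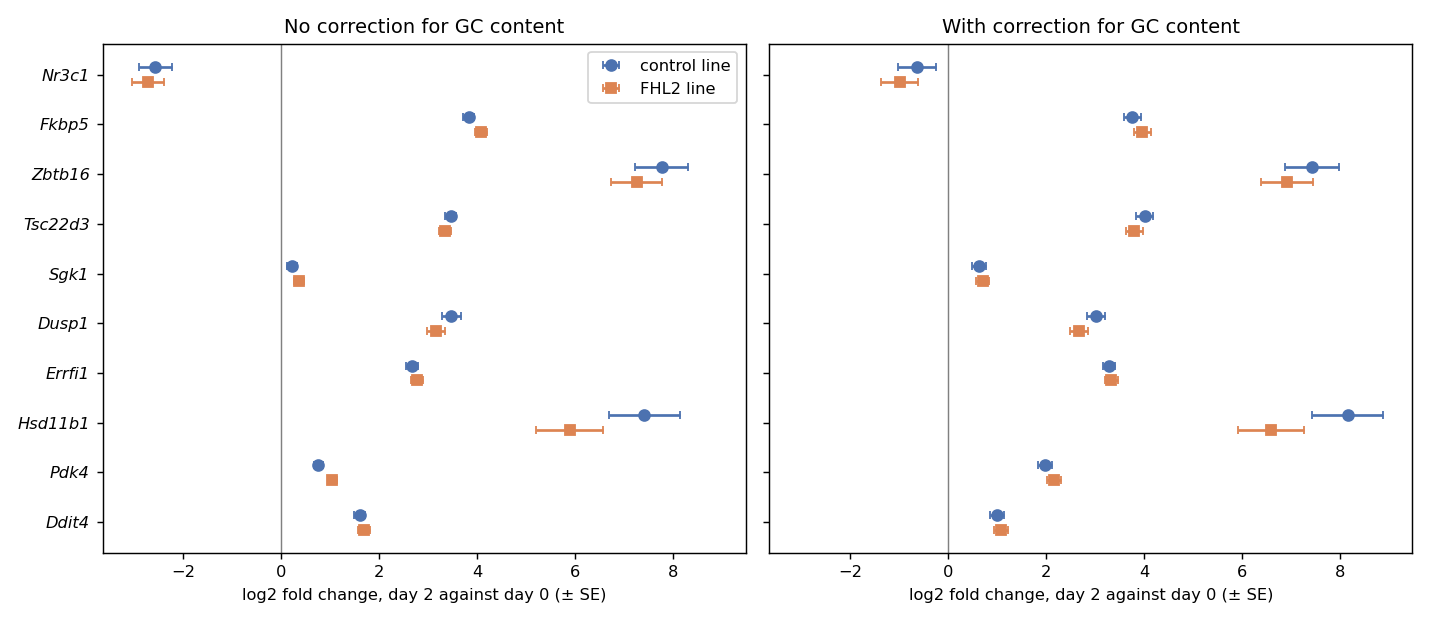
Points are the log2 fold change of each gene from day 0 to day 2 in the control line (circles) and the FHL2 line (squares), bars are 1 SE from the model, and the panels give the fit without and with the correction for GC content on the same axis. The correction moves Nr3c1 from -2.57 to -0.64 in control and Pdk4 from 0.76 to 1.98, and moves Fkbp5 only from 3.82 to 3.75.

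Per kilobase of the longest coding transcript, the order of levels changed between the days. In control cells at day 0, Ddit4 was highest (37.2 CPM per kilobase), followed by Sgk1 (31.9), Tsc22d3 (30.1), Pdk4 (23.4), Nr3c1 (18.7), Errfi1 (10.3), Fkbp5 (6.002) and Dusp1 (5.70), with Hsd11b1 (0.0719) and Zbtb16 (0.0239) near 0. At day 2 Tsc22d3 led (329.9 CPM per kilobase), followed by Ddit4 (113), Fkbp5 (84.8), Errfi1 (65.5), Dusp1 (63.2), Pdk4 (39.6), Sgk1 (37.1), Hsd11b1 (13.5), Zbtb16 (5.52) and Nr3c1 (3.16). In these levels, which carry no correction for GC content, the receptor stood in the middle of the order at day 0 and last at day 2; the order with corrected levels was not computed. Fkbp5 and Dusp1 at day 0, and the pairs Errfi1 with Dusp1 and Pdk4 with Sgk1 at day 2, differed by less than the spread of their libraries. Levels per kilobase in FHL2 cells at day 2 ran from 352.7 for Tsc22d3 to 2.71 for Nr3c1.

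Within day 2 the members did not all vary in the same direction between libraries. Library 2 of the control line held the highest level of 5 members (Zbtb16, Dusp1, Errfi1, Hsd11b1 and Pdk4) and the lowest of 4 (Nr3c1, Fkbp5, Tsc22d3 and Sgk1). Library 3 of the FHL2 line held the highest level of Tsc22d3, Sgk1, Dusp1 and Ddit4 and the lowest of Nr3c1 and Zbtb16. The spread over all genes was also wider at day 2, with a biological coefficient of variation of 0.39 against 0.120 at day 0, and the model shares a single spread per gene.

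Before induction, no member was called between the lines (edgeR), where 0.0485% of all genes tested were called (7 genes). At an unadjusted p under 0.05 there were 5 of 10 members, and 600 of the 14435 genes tested. The libraries of the lines did not overlap for 6 members, Tsc22d3 being higher in FHL2 cells and Fkbp5, Sgk1, Errfi1, Pdk4 and Ddit4 lower; among all genes 21.6% did not overlap in either direction. The widest gaps per SE were those of Errfi1, at 31.4 ± 0.519 CPM in control and 21.1 ± 1.74 CPM in FHL2 cells (SD, n = 3; log2 difference -0.57 ± 0.12 SE, adjusted p = 0.121), and of Ddit4, at 65.2 ± 5.28 and 47.5 ± 1.88 CPM (-0.46 ± 0.12, adjusted p = 0.312). In a fit of only the 6 day 0 libraries both were called as lower in FHL2 cells, Errfi1 at -0.55 (adjusted p = 0.0211) and Ddit4 at -0.44 (adjusted p = 0.0361), where 1.75% of all genes were called. DESeq2 called the same 2 members (adjusted p = 0.000748 and 0.0312), with 0.61% of all genes called. Nr3c1 was at 120.4 ± 14.6 and 114.7 ± 9.81 CPM, a log2 difference of -0.07 ± 0.30.

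After induction 1 of the 10 members, Errfi1, was called between the lines, beside 2.07% of all genes. It was at 199 ± 29.6 CPM in control and 143 ± 1.72 CPM in FHL2 cells (SD, n = 3; log2 difference -0.48 ± 0.11 SE, adjusted p = 0.0426, edgeR), lower in 3 of 3 FHL2 libraries. This call was close to the threshold: it was lost in a fit of only the day 2 libraries (adjusted p = 0.249, where 0.304% of all genes were called) and when any single library other than control day 2 library 3 was left out. Without control day 2 library 2 the difference was -0.36 (adjusted p = 0.139). Hsd11b1 was at 21.9 ± 10.3 CPM in control and 10.55 ± 1.41 CPM in FHL2 cells, with no overlap, but was not called (-1.05 ± 0.50, adjusted p = 0.288); without control day 2 library 2 its difference was -0.60. These 2 were the members without overlap, where 14.7% of all genes had none. Ddit4 was at 197 ± 27.0 and 153 ± 13.9 CPM (-0.37 ± 0.12, adjusted p = 0.114) and Dusp1 at 126 ± 29.3 and 92.5 ± 15.1 CPM (-0.44 ± 0.17, adjusted p = 0.199), with overlapping libraries. DESeq2 called Errfi1 and Ddit4 (adjusted p = 0.00105 and 0.0370), with 6.91% of all genes called. The log2 differences of Nr3c1, Fkbp5, Zbtb16, Tsc22d3, Sgk1 and Pdk4 lay between -0.22 and 0.10.

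The change from day 0 to day 2 was not called as different between the lines for any member (edgeR), and 0.00693% of all genes, a single gene, were called. No member had an unadjusted p under 0.05, beside 996 of the 14435 genes tested, and DESeq2 called none of the 10 and 66 of all genes. The estimates ran from -1.53 ± 1.03 for Hsd11b1 (adjusted p = 0.839) to 0.29 ± 0.14 for Pdk4 (adjusted p = 0.724), with Fkbp5 at 0.25 ± 0.14 and Dusp1 at -0.31 ± 0.26. The SE of Hsd11b1 and of Zbtb16 (-0.51 ± 0.85) are the widest, and few day 0 counts stand behind them.

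**Figure D4:**
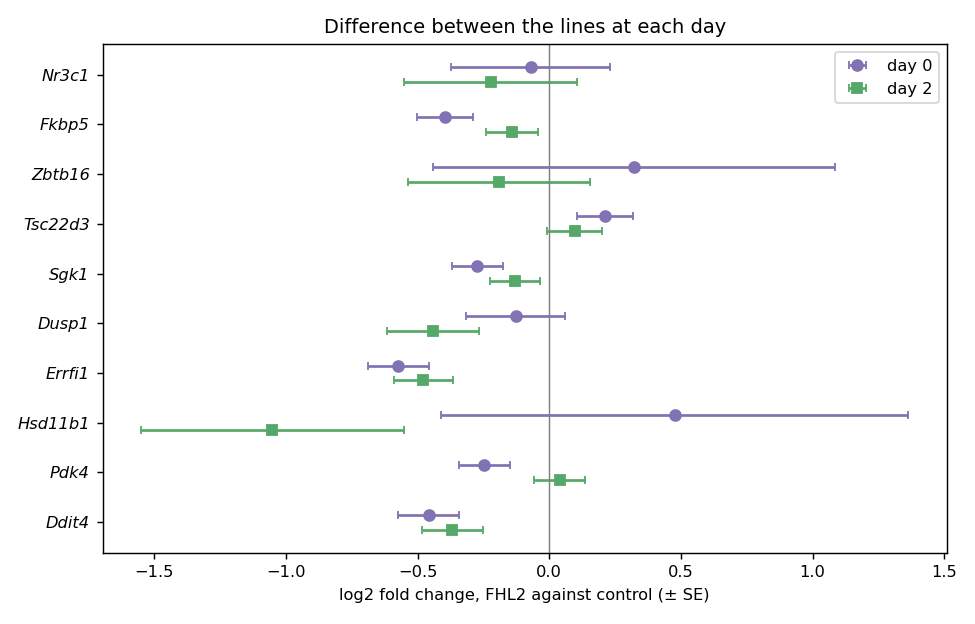
Points are the log2 fold difference of FHL2 against control cells at day 0 (circles) and day 2 (squares) for each of the 10 genes, and bars are 1 SE from the model. Errfi1 is below 0 at both days (-0.57 and -0.48), as are Nr3c1, Fkbp5, Sgk1, Dusp1 and Ddit4. The bars of Nr3c1 at both days and of Dusp1 at day 0 include 0, and only Errfi1 at day 2 was called. The bars of Hsd11b1 and Zbtb16 are the widest.

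Genes around the receptor were counted by lists, beside all genes tested, of which 26.3% rose and 30.8% fell in control cells and 25.8% and 30.2% in FHL2 cells. With the correction for GC content these shares were 25.1% and 11.9% in control and 23.2% and 12.8% in FHL2 cells, and the median of all genes was 0.17 and 0.14. Of 14 chaperones of the receptor complex, 5 rose and 6 fell in control cells (median log2 change 0.02), and 4 rose and 6 fell in FHL2 cells. The largest falls were those of Hsp90aa1, the inducible HSP90, from 253 to 55.7 CPM (-2.19), its co-chaperone Dnaja1, from 156 to 39.0 CPM (-2.00), the cyclophilin Ppid (-1.91) and the p23 gene Ptges3 (-1.47). None of these 4 control changes was called after the correction for GC content. With it 4 chaperones rose and 1 fell in control (median 0.23), and 3 rose and 2 fell in FHL2 cells (median 0.10). In control the abundant Hspa8, which loads the receptor, was at 779 and 824 CPM and was not called. Nor was the co-chaperone Bag1 (85.3 and 82.4 CPM), which was called as lower after the correction (-0.48). Of 15 coregulators 5 rose and 5 fell in control (median -0.23), and 4 rose and 8 fell in FHL2 cells. After the correction 3 rose and 2 fell in control (median -0.01), and 3 rose and 4 fell in FHL2 cells (median -0.22). The counts of both lists in control are not far from the shares of all genes. The coactivators Ppargc1a (-2.11) and Ncoa2 (-1.16), the mediator subunit Med14 (-1.01) and the corepressor Ncor1 (-1.18) fell; Ncor1 and Ncoa2 also fell after the correction, and Ppargc1a (-0.28) and Med14 (0.43) were not called. The acetyltransferases Ep300 and Crebbp were not called in control (-0.23 and -0.37).

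Of 8 genes of related steroid receptors and hormone handling 6 were tested, 1 rose and 2 fell in control (median -1.27), and 1 rose and 3 fell in FHL2 cells; none was called after the correction in either line (median -0.34 in control). H6pd, which supplies the cofactor for the reductase of Hsd11b1, rose from 59.5 to 114 CPM in control (0.93), the mineralocorticoid receptor Nr3c2 fell from 26.7 to 10.6 CPM (-1.32) and the steroid exporter Abcb1b fell from 22.8 to 8.68 CPM (-1.40). Pgr had no count in any library, and Hsd11b2, the enzyme that inactivates glucocorticoid, had too few counts to be tested. Srd5a1 (-1.22) was not called.

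Other genes known to be induced by glucocorticoids mostly rose. Of 33 listed, 28 were tested. In control 20 rose and 4 fell (median 2.14), and in FHL2 cells 19 rose and 4 fell (median 1.92). With the correction 16 rose and 3 fell in control (median 2.02), and 15 rose and 2 fell in FHL2 cells (median 1.58). Rasd1 passed the filter only through day 2. Without it, and without the correction, 19 of 27 rose and 4 fell in FHL2 cells (median 1.71), and 20 rose and 4 fell in control (median 1.83). The lipocalin Lcn2 rose from 0.33 to 129 CPM (8.50) and the actin-associated Fam107a from 0.70 to 120.3 CPM (7.35). Angiotensinogen, Agt, rose from 5.51 to 199.7 CPM (5.19), and the adipogenic factor Cebpd rose from 17.1 to 293 CPM (4.1). Against the name of the list, the ubiquitin ligase Fbxo32 (-2.14), the caveolar protein Cavin2 (-2.46), the annexin Anxa1 (-2.12) and the KLF factor Klf9 (-0.65) fell in control; after the correction Cavin2 (-0.96) and Klf9 (0.02) were not called, and Fbxo32 (-1.12) and Anxa1 (-0.56) still fell. Cited2 and Pik3r1 were the most abundant genes of the list that were not called (-0.29 and 0.15); corrected, they were called at -0.70 and 1.36.

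Of 23 genes known to be repressed by glucocorticoids 16 were tested; 1 rose and 8 fell in control (median -0.89), and 1 rose and 6 fell in FHL2 cells (median -0.32). With the correction 5 rose and 6 fell in control (median -0.11), and 6 rose and 5 fell in FHL2 cells (median 0.12). The chemokine Cxcl10 fell from 13.1 to 0.61 CPM (-4.34), the cyclooxygenase Ptgs2 from 12.8 to 1.74 CPM (-2.84), the osteoblast factor Runx2 from 82.8 to 28.7 CPM (-1.52) and the collagen Col1a1 from 5691 to 2920 CPM (-0.96). After the correction Ptgs2 was at -0.59 and not called, and Runx2 (-1.45) and Col1a1 (-1.59) still fell. Lif, a cytokine of the interleukin-6 family, rose (2.23). The chemokines Ccl2 (-1.49) and Ccl7 (-0.07) were not called; corrected, Ccl7 was called as a rise (1.73).

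Genes of cyclic AMP and insulin signalling were also counted; since the 3 agents were given together, these counts do not separate them. Of 17 cyclic AMP response genes 16 were tested, 7 rose and none fell in each line (edgeR; median 0.32 in control), and 9 rose after the correction (median 1.18). Nr4a3 passed the filter only through day 2, so it had to differ between days. Without it, and without the correction, 7 of 15 rose in FHL2 cells (median 0.41) and 6 of 15 in control (median 0.30). The deiodinase Dio2 rose from 0.70 to 16.1 CPM (4.51), the orphan receptor Nr4a1 from 12 to 142 CPM (3.57), and the phosphodiesterases Pde4b (3.04) and Pde4d (2.84) also rose; corrected, Dio2 was at 6.02 and Pde4b at 4.05. Gem (0.28) and Pde4a (0.33) were not called, and corrected Gem was called at 1.29. Of 11 FoxO targets that insulin represses, 3 rose and 6 fell in control (median -0.71), and 4 rose and 6 fell in FHL2 cells. After the correction 3 rose and 2 fell in control (median 0.06), and 4 rose and 2 fell in FHL2 cells (median -0.03). The share that rose in control is near that of all genes. In FHL2 cells the 4 of 11 that rose stand beside 25.8% of all genes, and beside 23.2% after the correction. The 6 of 11 that fell in each line stand beside 30.8% of all genes in control and 30.2% in FHL2 cells. After the correction, the 2 of 11 that fell in each line stand beside 11.9% of all genes in control and 12.8% in FHL2 cells. Irs2, Bcl6 and Fbxo32 are also in the list of other genes known to be induced by glucocorticoids. Sesn3 (-1.47), a stress-induced brake on mTORC1, and the cell cycle inhibitor Cdkn1b (-1.03) fell, and the repressor Bcl6 rose (1.83); corrected, Sesn3 was at -0.24 and not called, and Cdkn1b was at 0.72 and called as a rise. Pik3ip1 (-0.29) and Sesn1 (-0.11) were not called.

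The close relatives of the 10 genes had a median log2 change of 0.45 in control and 0.14 in FHL2 cells (0.21 and 0.23 after the correction). The medians of the 10 genes were 3.06 and 2.96. Among the relatives, Dusp2 passed the filter only through day 2. Without genes that passed only through day 2, the medians were 0.36 and 0.03 for relatives and 2.13 and 2.22 for members. Of 23 paralogues 19 were tested, and 8 rose and 4 fell in each line; after the correction 5 rose in each, and 1 fell in control and 2 in FHL2 cells. Among relatives of Fkbp5, Fkbp8 rose (1.08), and among those of Tsc22d3, Tsc22d4 rose (0.87) and Tsc22d2 fell (-1.66); only Fkbp8 of these 3 was still called after the correction (0.56). Pdk3 (0.27) and Zbtb7a (-0.27) were not called in control; corrected, they were called at 0.82 and -0.86. No difference between the 10 genes and these lists was tested.

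**Figure D5:**
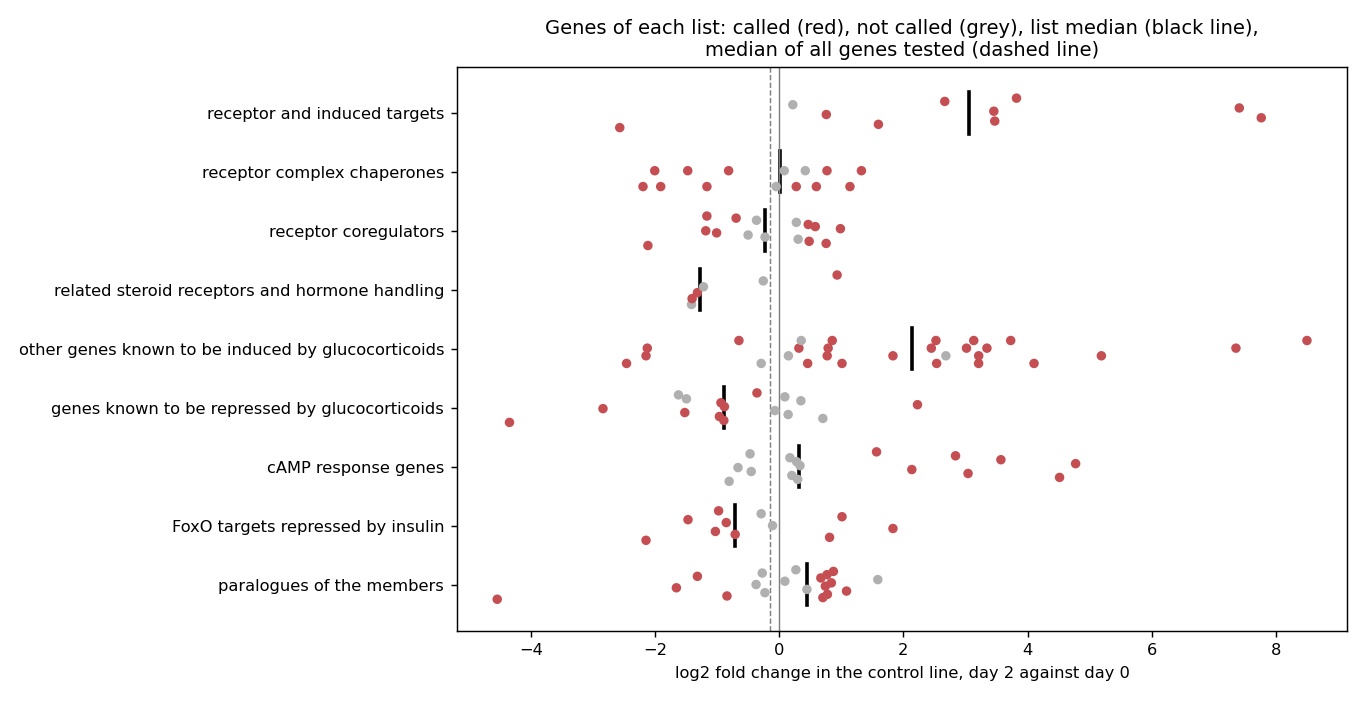
Each point is the log2 fold change of 1 tested gene from day 0 to day 2 in the control line, in red where called and grey where not; black bars are list medians and the dashed line is the median of all genes (-0.14). The 10 members have the highest median (3.06), followed by the other induced genes (2.14), and the related receptors have the lowest (-1.27). Zbtb16, Hsd11b1, Rasd1, Nr4a3 and Dusp2 passed the filter on low counts only through day 2. Without them the medians of the members and of the other induced genes are 2.13 and 1.83. Those of the cyclic AMP response genes and of the paralogues are then 0.30 and 0.36.

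Between the lines, 1 of 120 different list genes tested was called at day 0 (0.833%, beside 0.0485% of all genes) and 7 at day 2 (5.83%, beside 2.07%). At day 0 the metalloprotease Mmp9 was lower in FHL2 cells, at 60.8 ± 2.76 against 100.3 ± 6.28 CPM (SD, n = 3; log2 difference -0.72, adjusted p = 0.0356, edgeR). The Mmp9 call was lost with upper-quartile scaling (adjusted p = 0.0709) and without any 1 of 10 of the 12 libraries (adjusted p up to 0.335). The 7 genes called at day 2 were all lower in FHL2 cells: Angptl4, a lipase inhibitor (351 against 507 CPM, -0.53), the metallothionein Mt2 (152 against 249 CPM, -0.71), Fbxo32 (2.64 against 5.74 CPM, -1.12), Col1a1 (2212 against 2920 CPM, -0.40), Nr4a1 (90.9 against 142 CPM, -0.65), Tsc22d1 (222 against 335 CPM, -0.60) and Pdk1 (25.5 against 55.3 CPM, -1.11). Their adjusted p-values ran from 0.00540 for Mt2 to 0.0369 for Nr4a1. Of all 299 genes called at day 2, 195 were lower in FHL2 cells and 104 were higher. With the correction for GC content, Fbxo32 (adjusted p = 0.0627) and Col1a1 (adjusted p = 0.112) were no longer called, nor was Mmp9 at day 0 (adjusted p = 0.139). In a fit of only the day 2 libraries Mt2 alone was called (adjusted p = 0.0292), and the others had adjusted p-values from 0.0660 for Pdk1 to 0.682 for Fbxo32. When single libraries were left out, Nr4a1 lost its call in 9 of 12 fits, Fbxo32 in 7, Col1a1 in 3 and Tsc22d1 in 1, and Angptl4, Mt2 and Pdk1 in none. No list gene was called in the interaction (edgeR).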

How the data were processed

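The authors deposited 1 table of raw counts per Ensembl gene for 12 libraries of polyadenylated RNA. Per the submitters' processing notes, alignment and counting tools named are HISAT2 2.2.1 and HTSeq 0.11.0, beside FastQC 0.11.9, Trimmomatic 0.39, limma and R 4.1.0, with build mm39. No source used here gives the strand setting or annotation, so overlapping and antisense genes are uncertain. Symbols matched 52081 of 55414 identifiers.

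Counts as deposited were tested with edgeR 4.0.16 (quasi-likelihood test, R 4.3.3) after its expression filter by group and TMM scaling. The fit held 1 mean per group over the 12 libraries, and p-values were adjusted by Benjamini-Hochberg over 14435 genes (threshold 0.05). Levels are TMM-scaled CPM. The control and FHL2 comparisons share groups. The test was tested on simulated data. Alternatives were other scalings and filters, DESeq2 1.42.0, limma-voom (limma 3.58.1), fits of only the groups compared, a replicate block, leaving out libraries, and a GC correction (a spline with 5 degrees of freedom per library; GENCODE M21 transcripts of GRCm38 matched by identifier, 99.8% of genes). A GC and length correction was chosen after seeing the data.

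The 10 genes and the 8 lists were chosen with earlier results of these data known. Named from each list were the up to 4 largest called changes in control of at least 5 CPM, the up to 2 most abundant uncalled genes, and every gene called between the lines (1 gene under this rule is not reported here); Cavin2, Anxa1, Klf9 and Lif were named after their values were seen. No read-level data were used.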

Additional observations from a re-analysis of the deposited data

How the results depend on the processing

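Depth and small groups limit these values: Zbtb16 and Hsd11b1 had at most 8 counts in any day 0 library, each group had 3 libraries, and the spread was wider at day 2. The number of the 10 genes called between days was 9 to 10 in each line under every alternative run, and 0 were called in the interaction under each. Nr3c1 lost its call in both lines under the 3 fits with a GC correction. Sgk1 in control was called under 11 alternatives.

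At day 0 the number called, 0, became 1 without the filter on low counts, 2 by DESeq2, 2 with only the groups compared and 1 with the 3 day 2 libraries of lowest gene detection left out. At day 2 the number called, 1, became 2 by DESeq2 and 0 with only the groups compared, and ranged from 0 to 1 when single libraries were left out. With the replicate number as a block it was 0, and 0 also with the block and the GC correction. Same-numbered libraries of different groups had correlations of their deviations from -0.130 to 0.0860, and differently numbered ones from -0.111 to 0.137. Between control day 0 and control day 2, each library correlated best with its own number (0.0669, 0.0356 and 0.0711). In other pairs of groups not every library did, and the numbers were not taken to pair the libraries.

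Differences that changed sign were small or rested on few counts, and none was called. By limma-voom, Zbtb16 at day 0 was at -0.50, Hsd11b1 at day 0 at -0.34 and the Zbtb16 interaction at 0.27. With the GC correction, the block with it, and GC and length, Nr3c1 at day 0 was at 0.020, 0.019 and 0.065, and Pdk4 at day 2 at -0.022, -0.013 and -0.057. Tsc22d3 at day 2 was at -0.061 with GC and length. With the 3 libraries left out, Pdk4 at day 2 was at -0.093, and the interactions of Tsc22d3 and Errfi1 were at 0.066 and -0.032. When single libraries were left out, the day 0 difference ran from -0.80 to 0.93 for Zbtb16 and from -0.77 to 1.08 for Hsd11b1, both negative without FHL2 day 0 library 2. The day 2 difference ran from -0.049 to 0.11 for Pdk4, from -0.016 to 0.18 for Tsc22d3 and from -0.67 to 0.076 for Nr3c1. The interaction ran from -1.12 to 0.60 for Zbtb16, from -0.043 to 0.20 for Errfi1, from -0.61 to 0.13 for Nr3c1 and from -0.015 to 0.15 for Ddit4. The cause was not tested.

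Counts over all genes moved more. Between days, 8246 called genes in control became 5337 with the GC correction, 4923 with the block added and 5437 with GC and length, and 8087 in FHL2 became 5188, 4827 and 5310. At day 0, 7 became 69 without the filter, 88 by DESeq2, 18 by limma-voom, 246 with only the groups compared, 11 with the block, 3 with the GC correction, 2 with GC and length, 135 without the 3 libraries and as few as 1 without a single library. At day 2, 299 became 846 without the filter, 997 by DESeq2, 39 with only the groups compared, 191 with the GC correction, 62 with the block added, 184 with GC and length, 1606 without the 3 libraries and as few as 146 without a single library. In the interaction, 1 became 2 with upper-quartile scaling, 91 without the filter, 66 by DESeq2, 0 with the block and GC correction, 3 with GC and length, 243 without the 3 libraries and 0 to 6 without a single library.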
